A study of Homo sapiens with 4 samples.

Results

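Membrane-anchored serine proteases and the Kunitz-type inhibitors that block them were followed in an androgen-deprived prostate cancer line with and without the glucuronidating enzyme UGT2B17. The 10 genes described here were TMPRSS2, TMPRSS3, TMPRSS4, TMPRSS6, TMPRSS11E, HPN, ST14 and CORIN, which encode proteases, and SPINT1 and SPINT2, which encode inhibitors. They were chosen by name as members of this protease system, from 60880 genes counted, and they were selected with their read counts in these same libraries in view. The difference between the groups is therefore given for these 10 genes as a description, without a test. The lists of further genes below were also chosen with earlier results of these data known. Their counts and p-values are therefore no independent support.

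Poly(A)+ RNA was sequenced from 2 libraries of LNCaP95, replicates 1 and 2, and 2 libraries of LN95(KO), replicates 3 and 4. LNCaP95 is a derivative of the prostate adenocarcinoma line LNCaP obtained by prolonged androgen depletion, and LN95(KO) is the line after CRISPR targeting of UGT2B17. Both groups were grown without treatment in RPMI1640 medium with 10% charcoal-stripped serum, which is low in steroids. The published methods give a lower percentage of this serum for LNCaP95. How many clones make up LN95(KO) is not given in the sources used here, nor is it said whether replicates came from separate cultures, so errors and p-values cover only the spread between these libraries, which may be technical. The labels give the line as LN95 in all 4 libraries, while the series text names LNCaP for the knockout.

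Type II transmembrane serine proteases cross the cell membrane once, keep a short tail inside the cell and carry a trypsin-like catalytic domain outside it. They are made as inactive zymogens that are activated by a cut before the catalytic domain, often by the enzyme itself or by another member of the family. SPINT1 and SPINT2 encode membrane-bound proteins with Kunitz domains, known as the hepatocyte growth factor activator inhibitors, which bind and block several of these proteases. In the prostate, TMPRSS2 is a well-known androgen-regulated gene and the upstream partner of ETS-family gene fusions, and hepsin, the product of HPN, is abundant in prostate carcinoma.

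Reads assigned to genes numbered 17330338 to 18813193 per library. A floor of 3 reads, set here to stand for a count of 0, thus corresponds to 0.163 to 0.169 in counts-per-million (CPM, on library sizes scaled by TMM factors). Reads that did not align made up 3.85% and 3.96% of entries in LNCaP95, compared with 8.05% and 7.71% in LN95(KO). The targeted gene UGT2B17 had 2788 and 2748 reads in LNCaP95 against 21 and 20 reads in LN95(KO), and its log2 fold change was -7.04 ± 0.10 (SE; edgeR quasi-likelihood test, Benjamini-Hochberg adjusted p = 1.18e-18). All 7 luminal prostate markers had reads, with summed levels of 3220 to 3240 CPM in LNCaP95 and 2900 to 2970 CPM in LN95(KO). In the same order of groups, the 3 basal markers summed to 0.163 to 0.164 CPM and 1.02 to 1.26 CPM, and the 3 neuroendocrine markers, among which CHGA was at 0, to 48.0 to 49.8 CPM and 14.2 to 15 CPM. The 3 fibroblast markers summed to 29.4 to 29.7 CPM and 31.8 to 34.2 CPM with DCN at 0, and the 3 leukocyte markers to at most 0.0542 CPM in LNCaP95 and 0 in LN95(KO) with CD3E and CD68 at 0. Other genes overlapped 85.6% of the exon length of CD68, so most of its reads could have been dropped in counting. VWF, the 1 endothelial marker counted, had 0.433 to 0.437 CPM and 2.77 to 3.18 CPM. In bulk RNA, fewer cells with a transcript and less of it per cell cannot be told apart.

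Of the 10 genes, 9 passed the filter on low counts, and TMPRSS3 did not. By the rule that calls a gene at an adjusted p under 0.05 and a change of more than 2-fold, which is no test of genes chosen in this way, 4 were past the threshold, against a background of 18.0% of the 15626 genes tested. TMPRSS2, TMPRSS4 and TMPRSS11E were past it on the higher side in LN95(KO), where the background was 8.86%, and TMPRSS6 on the lower side, where it was 9.13%. The CPM ranges of the groups did not overlap for any of the 9 genes, and the same held for 79.8% of all genes tested. TMPRSS4 and TMPRSS11E passed the filter through LN95(KO) alone and TMPRSS6 through LNCaP95 alone. Their groups thus had to separate at the minimum of the filter, which favours a call without forcing it. Over the 9 genes the median log2 fold change was 0.75, with 7 estimates above 0 and 2 below, beside a median of -0.01 over all genes tested. Nothing is read from these counts or from this median, since the genes were chosen with this contrast known.

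TMPRSS2 encodes a protease of the secretory prostate epithelium that also cleaves the entry proteins of several respiratory viruses. The gene (ENSG00000184012, hg19 chr21:42836227-42903043, minus strand) had 511 and 556 reads in the LNCaP95 libraries, as against 4434 and 3701 reads in the knockout libraries. Both knockout libraries were far above both LNCaP95 libraries. The mean level was 29.02 ± 1.89 CPM (SD, n = 2) in LNCaP95 and 227 ± 33.7 CPM (n = 2) in LN95(KO), and the log2 fold change was 2.96 ± 0.11 (SE), or 7.81-fold. The ratio of pooled reads, scaled for library size, was 7.80, with an exact 95% binomial interval of 7.32 to 8.32 that covers counting error only.

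The knockout libraries differed from each other in TMPRSS2 by more than counting error. Replicate 3 was 1.24 times replicate 4 in CPM (interval 1.18 to 1.29), while the LNCaP95 libraries had a ratio of 0.912 with an interval of 0.807 to 1.03. Leaving out each library in turn gave log2 fold changes of 2.81 to 3.11. Among all genes tested, 277 had a larger estimated rise. Of the exon length of TMPRSS2, 8.53% overlapped another gene, MX1, in the annotation used here. Reads that fell in both genes in the annotation of the counting would have been dropped.

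**Figure D1:**
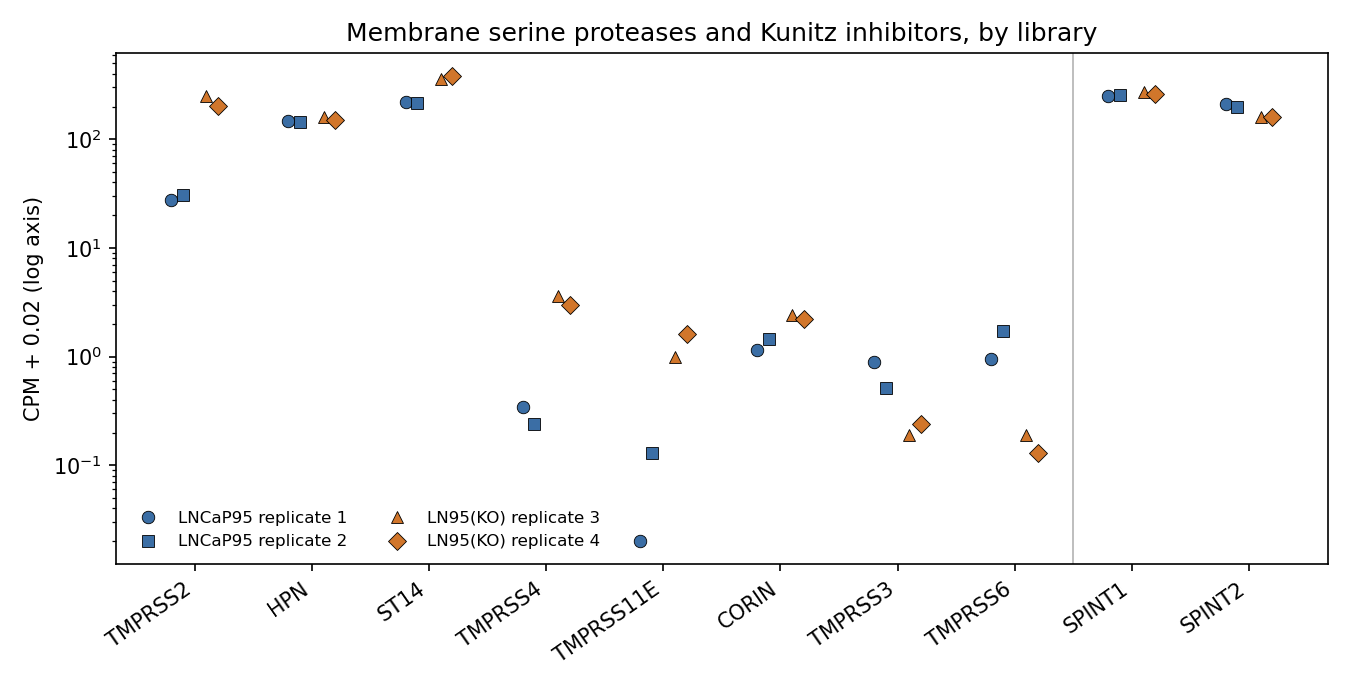
Level of the 10 genes in CPM plus the small constant named on the log axis, with 1 point for each of the 2 LNCaP95 libraries (blue) and the 2 LN95(KO) libraries (orange), proteases left and inhibitors right of the grey line. The point at the bottom is the LNCaP95 library with 0 reads of TMPRSS11E. TMPRSS2 lay at 27.7 and 30.4 CPM in LNCaP95 and at 250.5 and 203 CPM in LN95(KO), while HPN, SPINT1 and SPINT2 stayed above 100 CPM in every library.

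ST14 encodes matriptase, an epithelial protease with many surface substrates and the classic target of SPINT1. The gene (ENSG00000149418, chr11:130029677-130080257, plus strand) had 4043 and 3982 reads in LNCaP95 against 6310 and 6931 reads in LN95(KO). The knockout libraries were the higher pair. Mean levels were 218 ± 1.16 and 368 ± 16.5 CPM, a log2 fold change of 0.75 ± 0.05, or 1.69-fold, which lay under the 2-fold line.

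HPN (ENSG00000105707, chr19:35531410-35557477, plus strand) had 2712 and 2641 reads in LNCaP95 against 2832 and 2718 reads in LN95(KO). Its levels of 146 ± 1.94 and 154.5 ± 7.83 CPM lay close together, with a log2 fold change of 0.09 ± 0.05. Leaving out single libraries gave 0.04 to 0.14. Of its exon length 10.3% overlapped the antisense gene HPN-AS1, and the counting did not use strand.

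The other proteases were at low levels, at percentiles 5.2 to 9.9 of CPM per kilobase over all genes tested, TMPRSS3 not being ranked. TMPRSS4, a protease often raised in carcinomas, is at chr11:117947727-117992605 on the plus strand (ENSG00000137648). It had 6 and 4 reads in LNCaP95 against 64 and 54 reads in LN95(KO), and passed the filter on low counts through LN95(KO) alone. Its mean was 0.272 ± 0.0754 CPM against 3.29 ± 0.465 CPM, a log2 fold change of 3.56 ± 0.35, and the ratio of pooled reads was 12.1 with a counting interval of 6.34 to 25.8.

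TMPRSS11E, a protease of squamous epithelia, is at chr4:69313181-69363322 on the plus strand (ENSG00000087128). It had 0 and 2 reads in LNCaP95 against 17 and 29 reads in LN95(KO). The LNCaP95 libraries were thus under the floor of 3 reads, and both knockout libraries were above it. The ratio of pooled reads was 23.5, with a wide counting interval of 6.15 to 200. The fitted log2 fold change was 4.39, and it was 3.47 without LNCaP95 replicate 1 and 7.54 without replicate 2, where no LNCaP95 read was left. CORIN, which activates the natriuretic peptide of the heart, is at chr4:47596016-47840123 on the minus strand (ENSG00000145244). It had 21 and 26 reads in LNCaP95 against 42 and 40 reads in LN95(KO), or 1.28 ± 0.199 and 2.28 ± 0.128 CPM, and a log2 fold change of 0.83 ± 0.26.

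TMPRSS6 and TMPRSS3 ran the other way. TMPRSS6 encodes matriptase-2, which cuts hemojuvelin and so lowers hepcidin, and is at chr22:37461476-37505753 on the minus strand (ENSG00000187045). It had 17 and 31 reads in LNCaP95 against 3 and 2 reads in LN95(KO), and passed the filter on low counts through LNCaP95 alone. The means were 1.31 ± 0.545 and 0.140 ± 0.0424 CPM, a log2 fold change of -3.17 ± 0.55, and LNCaP95 exceeded LN95(KO) by a pooled ratio of 9.39 with a counting interval of 3.75 to 30.2. TMPRSS3, known from inherited deafness, is at chr21:43791996-43816200 on the minus strand (ENSG00000160183), less than a megabase from TMPRSS2. It had 16 and 9 reads in LNCaP95 against 3 and 4 reads in LN95(KO), a pooled ratio of LNCaP95 over LN95(KO) of 3.49 with a counting interval of 1.47 to 9.56.

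The inhibitor genes were about as abundant as the main proteases and differed between the groups by less than 2-fold. SPINT1, whose product forms complexes with matriptase, is at chr15:41136216-41150405 on the plus strand (ENSG00000166145). It had 4641 and 4635 reads in LNCaP95 against 4823 and 4736 reads in LN95(KO). Means of 252 ± 1.14 and 266 ± 9.18 CPM gave a log2 fold change of 0.08 ± 0.05. SPINT2, which blocks a wider range of proteases, is at chr19:38734675-38783255 on the plus strand (ENSG00000167642). It had 3872 and 3660 reads in LNCaP95 against 2820 and 2905 reads in LN95(KO), so that both knockout libraries were lower. Means of 205 ± 7.04 and 159 ± 0.0999 CPM gave a log2 fold change of -0.36 ± 0.05. Other genes overlapped 15.3% of the exon length of SPINT2, and an antisense gene 2.82% of that of SPINT1.

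To compare levels between genes, CPM was divided by the length of each gene's exon union in kilobases. On this scale ST14 had 53.0 CPM per kilobase in LNCaP95, HPN 43.0 and TMPRSS2 4.41. In LN95(KO) the levels were 89.4 for ST14, 45.7 for HPN and 34.4 for TMPRSS2. By this length TMPRSS2 was the third of the 17 family members in LN95(KO), while in LNCaP95 its share of the family sum (3.97% and 4.38%) did not separate from that of TMPRSS13 (4.03% and 3.99%). By coding length it was above HPN in both LN95(KO) libraries (35.3% and 30.7% against 29.5% and 29.5%), did not separate from ST14 there (32.1% and 36.6%), and was above TMPRSS13 in LNCaP95 (7.21% and 7.95% against 5.55% and 5.48%). Its ratio to HPN was 0.0967 and 0.108 in the LNCaP95 libraries, as against 0.804 and 0.699 in the knockout libraries. Averaged over all 4 libraries, the percentile among genes tested was 97.1 for SPINT1, 97.0 for ST14, 94.6 for HPN, 93.0 for SPINT2 and 86.0 for TMPRSS2.

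The 17 type II proteases of the family summed to 106 and 105 CPM per kilobase in the LNCaP95 libraries, as against 176 and 171 in the knockout libraries. In the LN95(KO) libraries TMPRSS2 made up 21.6% and 18.0% of that sum, beside the 3.97% and 4.38% in LNCaP95. The share of HPN was 41.0% and 40.6% in LNCaP95 but 26.9% and 25.7% in LN95(KO), so the same nearly constant HPN level was a smaller part of a larger sum. ST14 held 50.3% in both LNCaP95 libraries, beside 49.2% and 53.9% in LN95(KO). These shares depend on the length used. With coding length, HPN and not ST14 had the highest share in LNCaP95 (49.7% against 36.3%), and TMPRSS2 had 7.58% in LNCaP95 beside 33.0% in the knockout.

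SPINT1 and SPINT2 together summed to 112 and 111 CPM per kilobase in LNCaP95 beside 108 and 105 in LN95(KO). The ratio of the protease sum to this inhibitor sum was 0.943 and 0.949 in LNCaP95 but 1.63 and 1.64 in LN95(KO). The sum holds genes chosen with this contrast in view, so the ratio is a description and no test. In LN95(KO), replicate 3 over replicate 4 was 1.24 for TMPRSS2 but 0.939 for ST14. The closeness of the replicates in the summed ratio thus hides differences between the libraries. With coding length the ratio was 0.538 and 0.551 in LNCaP95 but 1.13 and 1.08 in LN95(KO), so whether the sum of the proteases lies above or below that of the inhibitors depends on the length, and the order of the groups did not change. ST14 relative to SPINT1 was at 0.750 and 0.739 in LNCaP95 but at 1.13 and 1.26 in the knockout, and HPN relative to SPINT1 was 0.612 and 0.597 in LNCaP95 beside 0.615 and 0.601 in LN95(KO). TMPRSS2 relative to SPINT2 was 0.102 and 0.117 in LNCaP95 but 1.21 and 0.983 in LN95(KO), and by coding length 0.0610 and 0.0702 against 0.727 and 0.589. By coding length ST14 was below SPINT1 in every library, at 0.539 and 0.532 against 0.809 and 0.905. These are ratios of transcript levels, and no protein or enzyme activity was measured.

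**Figure D2:**
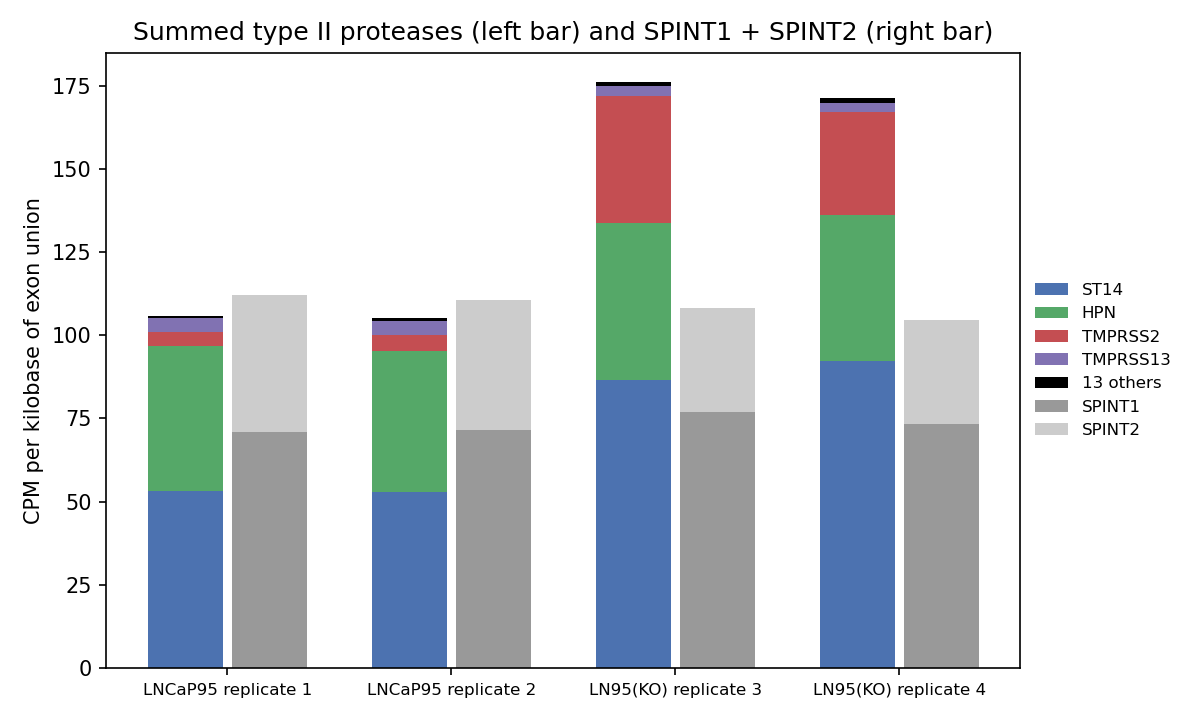
Transcript level per length (CPM per kilobase of exon union) in each of the 4 libraries, stacked for the type II proteases in the left bar of each pair and for SPINT1 and SPINT2 in the right bar, with bars starting at 0 and the black segment for the family members not listed by name. The protease sum stood at 106 and 105 in LNCaP95 and at 176 and 171 in LN95(KO), while the inhibitor sum lay between 105 and 112.

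Promoter windows from RefSeq (GRCh38.p14) were matched for 5 of the 10 genes, CORIN, HPN, SPINT1, TMPRSS3 and TMPRSS11E, and not for TMPRSS2, TMPRSS4, TMPRSS6, ST14 and SPINT2. The 250 bases before the start are shown for TMPRSS11E, which was near 0 in LNCaP95, and for HPN and SPINT1, which were high and nearly level, so that the base composition of genes with unlike levels can be seen. Capitals mark matches to 3 motifs searched on both strands, which do not overlap each other here. The first is the GC box, spelled GGGCGG. A common form of the TATA box, with the letters TATAAA, is the next. The last is the half-site of steroid hormone receptors, AGAACA.
TMPRSS11E (chr4:68447213-68447462, plus strand): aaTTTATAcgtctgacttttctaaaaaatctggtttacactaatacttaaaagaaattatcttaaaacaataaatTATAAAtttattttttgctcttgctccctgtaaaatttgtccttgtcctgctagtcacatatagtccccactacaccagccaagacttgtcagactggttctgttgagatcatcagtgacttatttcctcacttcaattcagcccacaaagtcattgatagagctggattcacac
HPN (chr19:35041471-35041720, plus strand): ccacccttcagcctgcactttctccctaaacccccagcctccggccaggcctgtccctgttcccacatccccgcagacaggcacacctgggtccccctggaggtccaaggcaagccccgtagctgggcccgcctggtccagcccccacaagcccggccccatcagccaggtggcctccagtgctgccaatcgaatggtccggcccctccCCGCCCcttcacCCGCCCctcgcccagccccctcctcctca
SPINT1 (chr15:40843798-40844047, plus strand): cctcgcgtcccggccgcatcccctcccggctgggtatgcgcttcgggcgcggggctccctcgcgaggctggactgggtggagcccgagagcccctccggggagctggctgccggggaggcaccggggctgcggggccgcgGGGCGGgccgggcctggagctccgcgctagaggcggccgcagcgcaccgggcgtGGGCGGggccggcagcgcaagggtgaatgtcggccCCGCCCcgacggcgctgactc

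The window of TMPRSS11E was rich in A and T, with 34.4% G and C, lower than in all but 4.8% of the 35116 windows of the same length. It held 2 matches to TATAAA, which 10.7% of all windows held. The HPN window had 70.4% G and C and 2 matches to GGGCGG, and that of SPINT1 80.4% and 3 matches, beside 42.6% of all windows with at least 1. A window at a second SPINT1 start held 1 match to AGAACA, found in 12.4% of all windows. The windows of CORIN (51.2% G and C) and TMPRSS3 (56.0%) held none of these letters. A match is a description of letters and no evidence of binding, and the absence of a match says nothing of a factor.

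Of the 9 remaining type II proteases, 4 had no reads in any library (TMPRSS11A, TMPRSS11B, TMPRSS11F and TMPRSS15) and 4 had at most 6 reads in each (TMPRSS5, TMPRSS7, TMPRSS9 and TMPRSS11D). TMPRSS13 was the 1 gene tested. It had 423 and 412 reads in LNCaP95 against 276 and 262 reads in LN95(KO). Its log2 fold change of -0.60 ± 0.09 (adjusted p = 2.90e-05) was below 2-fold and so not called. Of the 7 serine proteases held at the membrane by other anchors, 3 had no reads and 2 were tested, and neither was called. PRSS8 encodes prostasin, a lipid-anchored partner of matriptase, and had 244 ± 1.48 CPM in LNCaP95 and 206 ± 8.36 CPM in LN95(KO) (log2 fold change -0.24 ± 0.05, adjusted p = 3.70e-04). Relative to SPINT1, which also blocks prostasin, PRSS8 per exon length was at 1.15 in both LNCaP95 libraries but at 0.927 and 0.919 in the LN95(KO) libraries. By coding length the ratio was 1.49 and 1.5 in LNCaP95 but 1.2 and 1.19 in LN95(KO). Whether PRSS8 lay above or below SPINT1 in LN95(KO) thus depended on the length. PRSS27 had 63 and 54 reads against 39 and 40 (-0.53 ± 0.22, adjusted p = 0.0426), and its adjusted p ranged up to 0.27 over the alternatives.

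Among 26 other inhibitor genes (Kunitz-domain proteins, serpins and the Kazal-type SPINK genes), 12 were tested, 3 rose and 2 fell, where 8.86% of all genes tested rose and 9.13% fell. The list was chosen with earlier results of these data known, so its counts and p-values are no independent support. The median log2 fold change was 0.51 beside -0.01 over all genes. SERPINF2 and PAPLN passed the filter on low counts through the LN95(KO) libraries alone, where they were high. Their groups thus had to separate at the minimum of the filter, which favours a call without forcing it. Of the 10 that passed through both groups, 1 rose and 2 fell. TFPI, which blocks tissue factor and coagulation factor Xa, had 3605 and 3490 reads in LNCaP95 against 477 and 440 reads in LN95(KO). It fell from 193 ± 3.38 to 25.5 ± 2.01 CPM (log2 fold change -2.92 ± 0.06, adjusted p = 1.89e-16). SERPINE2, a serpin that inhibits thrombin, urokinase and prostasin, had 221 and 223 reads against 1104 and 1135 and rose from 12.1 ± 0.142 to 62.3 ± 0.127 CPM (2.37 ± 0.08, adjusted p = 5.53e-14). TFPI and SERPINE2 thus moved in opposite directions.

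The other called inhibitor genes were scarce. WFIKKN1 fell, with 84 and 63 reads against 23 and 20 (-1.73 ± 0.25, adjusted p = 1.22e-05). SERPINF2, the plasmin inhibitor, had no reads in LNCaP95 but 21 and 15 in the knockout, 6.14-fold above a floor of 3 reads in each LNCaP95 library (adjusted p = 1.81e-05). The exact 95% counting interval of its pooled ratio began at 9.48. PAPLN had 0 and 4 reads against 21 and 16, a pooled ratio of 9.46 with a counting interval of 3.40 to 36.5 (adjusted p = 5.05e-04). Leaving out single libraries moved its log2 fold change between 2.20 and 7.23, the highest being without LNCaP95 replicate 2, where no LNCaP95 read was left. Of the genes not called, APLP2 and APP had the highest levels per length. Both can carry a Kunitz domain in some isoforms, which counts per gene do not separate, and their log2 fold changes were 0.82 ± 0.05 (adjusted p = 6.31e-11) for APLP2 and -0.32 ± 0.05 (adjusted p = 2.25e-05) for APP.

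Of 33 substrates, receptors and partners of these proteases, 7 had no reads and 20 were tested, of which 6 rose and 1 fell, beside 8.86% and 9.13% of all genes tested. This list too was chosen with earlier results of these data known, so its counts and p-values are no independent support. The median log2 fold change was 0.30. Of the 6 that rose, 3, SCNN1B and SCNN1G among them, passed the filter through the LN95(KO) libraries alone. Their groups thus had to separate at the minimum of the filter, which favours a call without forcing it. Of the 16 that passed through both groups, 3 rose and 1 fell. Genes for chains of the basement membrane laminin that hepsin can cut, LAMA3 and LAMB3, were higher in LN95(KO). LAMA3 had 801 and 798 reads in LNCaP95 against 7227 and 6628 in LN95(KO), rising from 43.5 ± 0.121 to 386 ± 31.9 CPM (3.15 ± 0.06, adjusted p = 6.55e-17). LAMB3 was far less abundant and had 20 and 19 reads against 115 and 96 (2.46 ± 0.23, adjusted p = 6.43e-08). The chains of LAMA3 and LAMB3 are also made by basal cells. The basal keratin gene KRT14 had 1 and 2 reads in LNCaP95 against 17 and 20 in LN95(KO), and passed the filter through LN95(KO) alone. Of the other basal markers, KRT5 had 0 and 1 reads against 1 and 3, and TP63 had 2 and 0 against 0 and 0. The part of basal expression in these changes was not tested.

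F2RL1 encodes protease-activated receptor 2, which matriptase and TMPRSS2 can cut. It had 882 and 822 reads in LNCaP95 against 3323 and 3274 reads in LN95(KO), and rose from 46.3 ± 2.06 to 184 ± 5.90 CPM (1.99 ± 0.06, adjusted p = 9.58e-15). Other genes overlapped 10.4% of its exon length. The subunits of the epithelial sodium channel, which is opened by prostasin and related proteases, went in different directions. SCNN1A, named here after its values were seen, had 1883 and 1811 reads in LNCaP95 against 1129 and 1161 in LN95(KO) (-0.66 ± 0.06, adjusted p = 1.91e-08, not called). SCNN1B had 1 and 0 reads against 26 and 20, a pooled ratio of 47.1 with a counting interval of 8.03 to 1900 (adjusted p = 8.01e-06). Its fitted log2 fold change moved between 4.40 and 7.54 when single libraries were left out, the highest being without LNCaP95 replicate 1, where no LNCaP95 read was left. SCNN1G had no reads in LNCaP95 but 12 and 15 in the knockout, 4.6-fold above the same floor (adjusted p = 6.27e-05). The exact 95% counting interval of its pooled ratio began at 6.99.

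The gene that fell, MET, the receptor of hepatocyte growth factor, was also named after its values were seen. It had 18 and 22 reads in LNCaP95 against 6 and 10 in LN95(KO) (-1.28 ± 0.41, adjusted p = 0.0129). This call did not hold without LNCaP95 replicate 2 (-1.12, adjusted p = 0.121), without LN95(KO) replicate 3 (-0.98, adjusted p = 0.138) or with DESeq2 (adjusted p = 0.15), nor with glmTreat, which tests against a 2-fold change. HGF itself, whose precursor hepsin and matriptase activate, had no reads, nor had the TMPRSS6 substrate gene HJV. The genes with the highest levels per length that were not called were EPCAM and CDH1, cell adhesion proteins that matriptase-type enzymes can shed. EPCAM had 269 ± 11.7 and 205 ± 1.83 CPM (-0.39 ± 0.05, adjusted p = 2.65e-06), and CDH1 had 637 ± 18.7 and 444 ± 19.99 CPM (-0.52 ± 0.05, adjusted p = 6.75e-08).

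**Figure D3:**
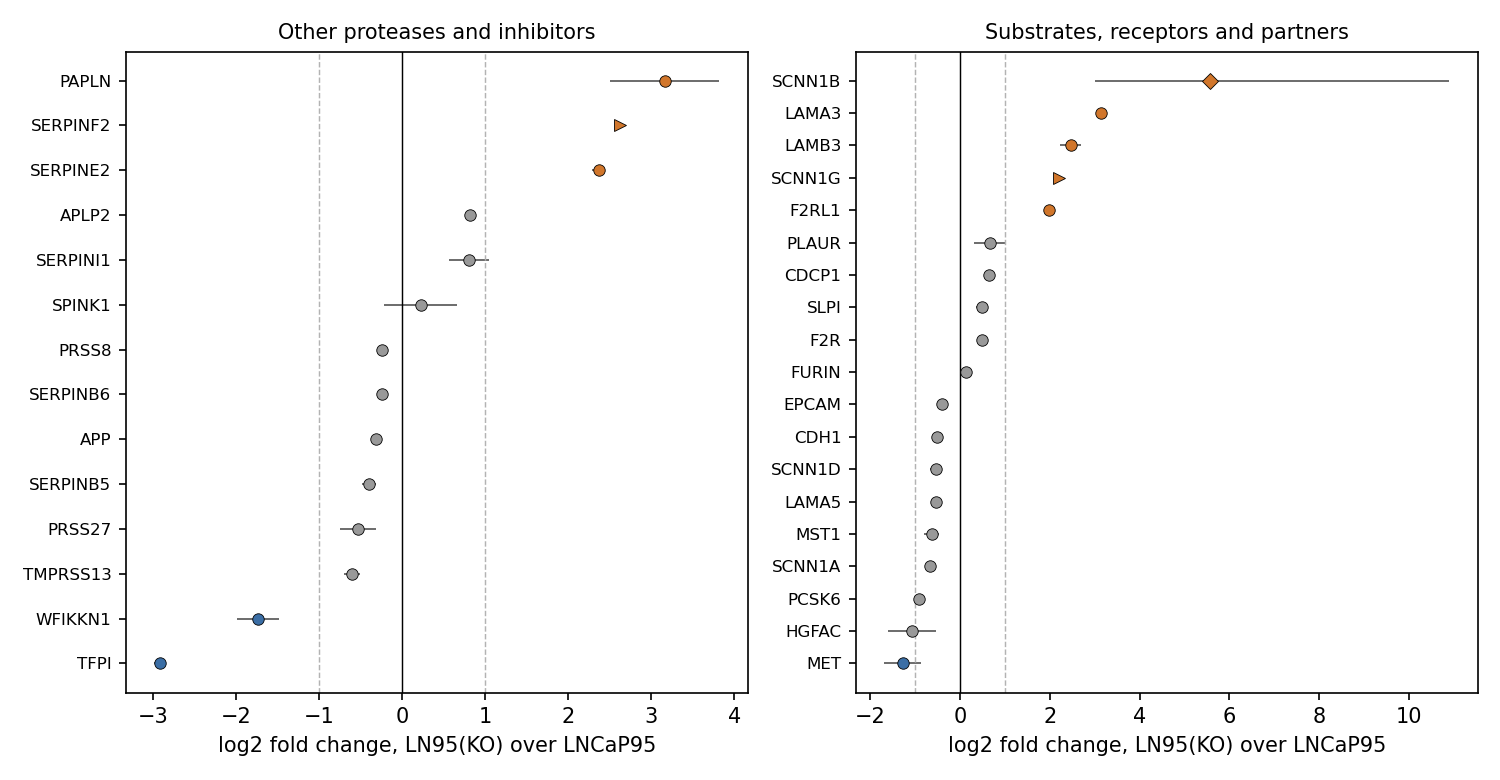
Log2 fold change of LN95(KO) over LNCaP95 for tested genes among other proteases and inhibitors (left) and among substrates, receptors and partners (right), with orange for genes called higher, blue for genes called lower and grey for the rest. Circles with bars are fitted values ± SE, and the diamond is the ratio of pooled reads with its 95% counting interval (SCNN1B). Triangles are values against the floor of 3 reads for genes with no LNCaP95 read (SERPINF2 and SCNN1G), and dashed lines mark 2-fold. TFPI at -2.92 and LAMA3 at 3.15 stand farthest out among the abundant genes.

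The genes next to each member were compared with it, taking the nearest 2 protein-coding genes on either side. Of 39 such genes besides UGT2B17, 25 were tested, 1 rose and 2 fell, beside 8.86% and 9.13% of all genes tested. The median log2 fold change was 0.10. Around TMPRSS2, MX1, an interferon-induced gene that overlaps it, had 31 and 34 reads in LNCaP95 against 48 and 69 in LN95(KO) (0.88 ± 0.24, adjusted p = 0.00464, not called). RIPK4, 256486 bases away, had 103 and 100 reads against 147 and 126 (0.46 ± 0.15, adjusted p = 0.0153), and PRDM15 had 172 and 198 against 287 and 220 (0.49 ± 0.14, adjusted p = 0.0059). MX2 had at most 8 reads in each library. The estimate of TMPRSS2 was thus above those of its tested neighbours, all of which lay under 2-fold.

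TMPRSS11E lies 39569 bases from UGT2B17, the gene targeted in the knockout, and the neighbours moved in opposite directions. UGT2B15, a paralog beyond UGT2B17, had 430 and 361 reads in LNCaP95 against 68 and 86 in LN95(KO) (-2.33 ± 0.14, adjusted p = 1.37e-10). Near-identical sequence between these paralogs makes its count uncertain. On the other side TMPRSS11B had no reads, and YTHDC1, a gene used in every cell, was listed at 0 in all 4 libraries, so its value cannot be read. The other called neighbours were RSPH1 beside TMPRSS3, with 85 and 72 reads against 11 and 14 (-2.61 ± 0.26, adjusted p = 1.93e-07), and IL2RB beside TMPRSS6, with 10 and 14 reads against 31 and 22 (1.17 ± 0.36, adjusted p = 0.0098). IL2RB thus lay opposite in direction to TMPRSS6. Its call was lost without LNCaP95 replicate 1 (0.94, adjusted p = 0.0888), without LN95(KO) replicate 3 (0.88, adjusted p = 0.151) and with DESeq2 (adjusted p = 0.117), and also with glmTreat.

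**Figure D4:**
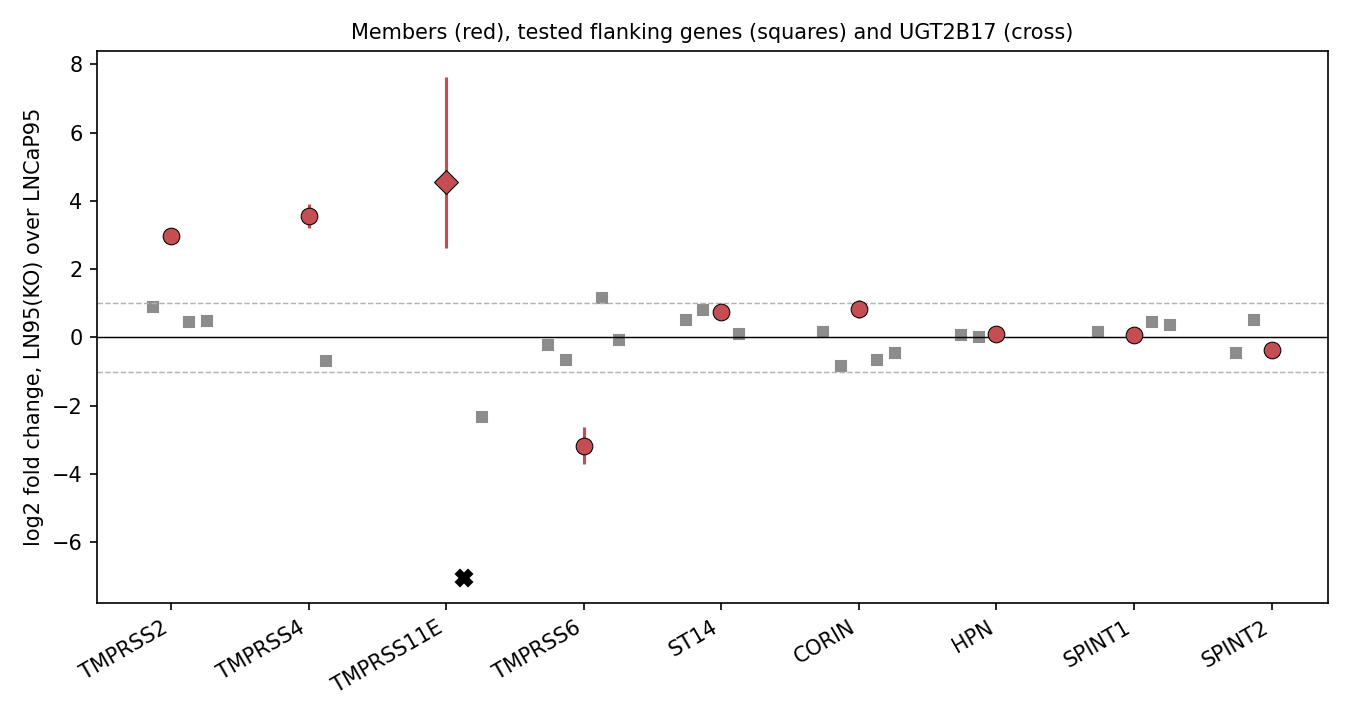
Log2 fold change of LN95(KO) over LNCaP95 for 9 of the 10 genes (red) and for the tested neighbours on their lower and higher coordinate sides (grey squares, left and right of each), with UGT2B17 as a cross. Red circles carry ± SE, the TMPRSS11E diamond is the ratio of pooled reads with its 95% counting interval, and dashed lines mark 2-fold. TMPRSS2 at 2.96 lay above its 3 tested neighbours, and UGT2B17 at -7.04 lay beside TMPRSS11E.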

How the data were processed

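RNA-seq was done on 4 poly(A)-selected libraries, 2 of LNCaP95 and 2 of LN95(KO). The values used are the deposited raw read counts per gene, made by the authors with HISAT2 2.1.0 on hg19 and HTSeq without use of strand, so reads shared by overlapping genes were dropped. A table of all samples holds the same values and was not used separately. Of 60880 identifiers, 59899 were paired with a symbol through GENCODE annotation on GRCh37, which also gave coordinates, exon unions and neighbours. This annotation is of a later release than the one the authors counted with, so overlaps and lengths used in counting may differ. Entries that name no gene made up 23.8% to 27.5% per library and were left out.

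The deposited counts were fitted across all genes with edgeR 4.0.16 in R 4.3.3 (TMM, filterByExpr with a minimum count of 10 and a minimum total of 15, robust quasi-likelihood F test), and p-values were adjusted by Benjamini-Hochberg over the 15626 genes tested. SE is the absolute log2 fold change divided by the square root of F. The text names all 10 genes, UGT2B17, the called genes of each list with the smallest adjusted p (at most 6), the 2 uncalled genes of highest level per length, all neighbours of TMPRSS2 and TMPRSS11E and called neighbours of the others. The genes and lists were chosen with earlier results of these data known. Counting intervals are exact binomial at 95%, and a floor of 3 counts in each library stands for 0. A permutation of 2 against 2 libraries cannot give a two-sided p below 0.333. On simulated counts for this comparison, 100% of 200 genes changed by 4-fold were recovered among 15263 genes, with 2 false calls. The simulation says nothing of smaller changes or of variation between clones or cultures. A few listed genes are counted in the lists but not reported here by name. Alternatives were RLE, upper-quartile and total-count scaling, DESeq2 1.42.0, no filter, no fold criterion, glmTreat, other gene lengths and leaving out each library.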

Additional observations from a re-analysis of the deposited data

How the results depend on the processing

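No fitted estimate of the 9 tested genes of the protease system changed sign under RLE, upper-quartile or total-count scaling, DESeq2, no filter or leaving out a library. Library totals raised SPINT1 to 0.13 and SPINT2 to -0.31. Without the fold criterion 7 of these genes, 1 other type II protease, 2 anchored proteases, 11 inhibitors, 17 substrates and partners, 17 neighbours and 9349 of all genes were called, against 4, 0, 0, 5, 7, 3 and 2811. With glmTreat 1687 of all genes were called. Leaving out single libraries gave 4 to 5 members, 5 to 7 inhibitors, 6 to 8 substrates, 3 to 4 neighbours and 2539 to 2777 genes in all. Among the genes reported here, estimates changed sign for SPINK1 (-0.088 to 0.61 without single libraries, the lowest without LNCaP95 replicate 1) and C1QTNF6 (-0.18 to 0.047, the highest without LN95(KO) replicate 4), neither of them called. Calls were gained without 1 library for SERPINI1 (1.11, without LNCaP95 replicate 2), PCSK6 (-1.004, without LNCaP95 replicate 1) and MX1 (1.10, without LN95(KO) replicate 3). TMPRSS3, untested in the main fit, was past the call rule, on the lower side, without LNCaP95 replicate 2 and without the filter. The cause was not tested. By longest transcript and by coding length, the share in LNCaP95 was 4.98% and 7.58% for TMPRSS2, 43.2% and 49.7% for HPN, 46.3% and 36.3% for ST14 and 4.69% and 5.52% for TMPRSS13. In LN95(KO) the shares were 23.2% and 33.0% for TMPRSS2, 27.4% and 29.5% for HPN, 46.8% and 34.3% for ST14 and 1.85% and 2.03% for TMPRSS13. The ratio of the protease sum to the inhibitor sum, 0.946 in LNCaP95 and 1.63 in LN95(KO), was 1.05 and 1.85 by longest transcript and 0.545 and 1.11 by coding length, alternatives chosen after seeing the data. No paired analysis was possible because LNCaP95 carries replicate numbers 1 and 2 and LN95(KO) carries 3 and 4. Depth limits TMPRSS3, TMPRSS6 and TMPRSS11E, each with at most 31 reads in a library. Where 1 library was left out, the lone library of its group was assumed to vary like the other group.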
